A study of Mus musculus with 8 samples.

Results

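miR-101a and miR-101b (mmu-miR-101a and mmu-miR-101b in the files) are a pair of closely related mouse miRNAs. Their levels were read in basal progenitors of the embryonic brain cortex, sampled on embryonic days 13 (E13) and 16 (E16). They were found by name among the spots of the 8 scanner files. They are 2 of the 611 mouse miRNAs on the array, with 4 of its 1759 mouse probes and 40 spots per array. Basal progenitors are neurogenic cells that divide away from the ventricle, and here they came from FACS, a sort on fluorescence. There were 4 arrays per stage with 1 sample on each, every sample description carries the mark WT, and no treatment, strain or sorting gate is named. The submitters speak of 3 litters per stage, so some replicates may share a litter, and the p-values measure only how far these samples scatter.

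miRNAs are short RNAs that guide a silencing complex to messenger RNAs through pairing of their seed, bases 2 to 8 from the 5′ end. The miR-101 family is known for repressing Ezh2, the catalytic subunit of a Polycomb complex that places a repressive methyl mark on histone H3. In the developing cortex Ezh2 acts in progenitors and influences when they turn to making neurons. Messenger RNA and protein of Ezh2 were not analysed here.

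The mature sequences are shown first because both the seeds and the probes depend on them. They are given 5′ to 3′ from RefSeq (GRCm38.p6), with the seed in capitals. The array's names correspond to the 3p arms, and miR-101c has no probe of its own.
miR-101a-3p: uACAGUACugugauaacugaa
miR-101b-3p: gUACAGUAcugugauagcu
miR-101c: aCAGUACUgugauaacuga
Aligned without gaps, miR-101a-3p and miR-101b-3p share 17 of 18 bases and differ by A16G (miR-101a-3p first, positions counted from 1 at its 5′ end). In this annotation miR-101b starts 1 base earlier, so its seed is shifted by 1 base against that of miR-101a. All 19 bases of miR-101c lie within miR-101a-3p. None of the 1679 mature names in the RefSeq table shares any of these 3 seeds, so no further seed family member could be compared.

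The hairpins show the same relation at the level of the precursors, with the mature 3p arm in capitals.
Mir101a: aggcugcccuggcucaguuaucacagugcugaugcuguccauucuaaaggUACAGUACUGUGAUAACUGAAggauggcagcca
Mir101b: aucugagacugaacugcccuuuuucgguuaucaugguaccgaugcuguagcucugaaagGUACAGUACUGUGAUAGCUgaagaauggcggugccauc
Mir101a lies on the minus strand of chromosome 4 and, in the RefSeq table, overlaps E130102H24Rik, a gene of a long non-coding RNA. Mir101b lies on the plus strand of chromosome 19 and overlaps the protein-coding gene Rcl1. Whether these overlaps are exonic or intronic was not analysed here.

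Each miRNA was read by 2 probes, copied here from the scanner files with the base opposite position 16 of miR-101a-3p in capitals.
miR-101a, longer probe: ttcagTtatcacagtactgta
miR-101a, shorter probe: ttcagTtatcacagtactgt
miR-101b, longer probe: ttcagCtatcacagtact
miR-101b, shorter probe: ttcagCtatcacagtac
The longer miR-101a probe is placed at chr4:101019601-101019620 on the minus strand and the shorter one at chr4:101019602-101019620 (mm9). The longer miR-101b probe is placed at chr19:29209833-29209849 on the plus strand and the shorter one at chr19:29209834-29209849 (mm9). These intervals, as the files give them, span 1 position fewer than the probes have bases. The probes of one miRNA differ by a single base at the end that pairs with the 5′ side of the miRNA. All 21 bases of the longer miR-101a probe pair with miR-101a-3p, and 19 of them pair with miR-101c. The longer miR-101b probe has 18 bases, of which 15 pair with RefSeq's miR-101b-3p and 3 lie beyond its 3′ end. The same probe pairs with miR-101a-3p at 17 bases with 1 mismatch. How far the signal of one miRNA reaches the other's probe was not tested.

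The arrays differed in brightness. The 75th percentile of the processed signal, over the 126 probes well above background everywhere, ranged from 162 to 490 at E13 and from 109 to 748 at E16. Between 119 and 206 miRNAs per array were well above background at E13 and between 76 and 170 at E16, with E16 replicate 4 lowest on both counts. The neural miRNAs miR-9, miR-9*, miR-124 and miR-128 were well above background on all 8 arrays, and miR-92b on 4 E13 arrays and 1 E16 array. None of the 19 miRNAs listed for erythroid, other blood, endothelial, muscle, liver or epithelial cells was well above background on any array. Of the oligodendrocyte list, miR-219 passed this limit on 4 arrays of E13 and 3 of E16, and miR-338-3p on 2 and 3. The messenger RNAs that define basal progenitors are not measured by a miRNA array.

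Signal of miR-101a was detected in basal progenitors at both stages. Its longer probe, which also pairs with miR-101c, was well above background on all 4 arrays of E13 and on 3 of the 4 of E16. Its unscaled processed signal at E13 was 13.4, 17.5, 52.1 and 32.8 on replicates 1 to 4. At E16 it was 140, 83.0, 40.3 and 7.38 on replicates 1 to 4. The E16 arrays therefore held both the brightest and the dimmest signal of the series. On the array with the dimmest signal, E16 replicate 4, only 1 of 10 spots was well above background, against every spot kept on the other 7 arrays. The SD over spots was between 6.24% and 18.9% of the mean on those 7 arrays and 32.8% on E16 replicate 4.

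**Figure D1:**
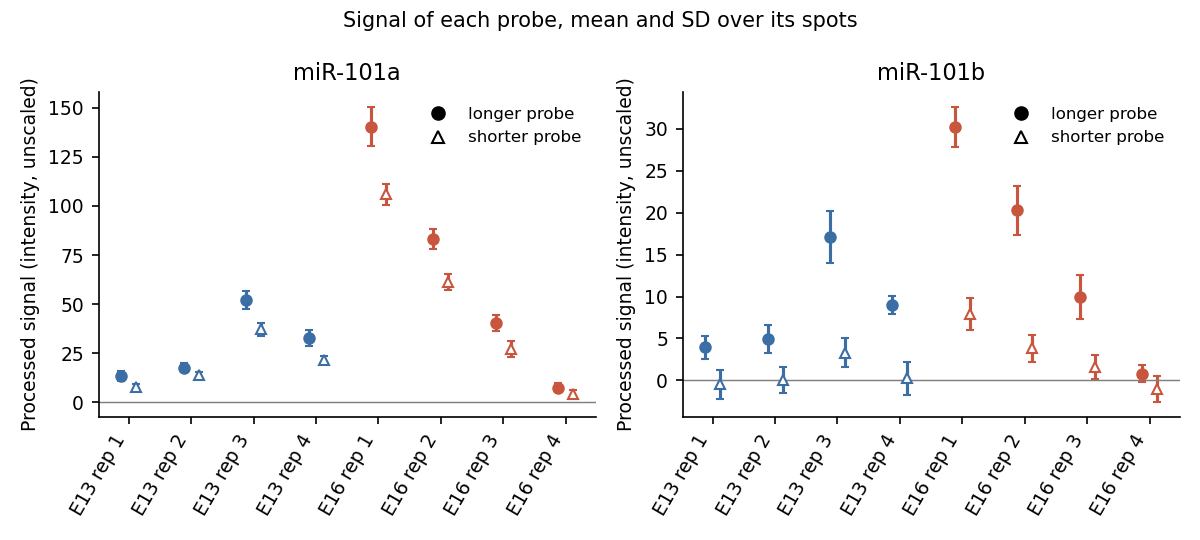
Unscaled processed signal (intensity, vertical axis) of the miR-101a probes (left) and miR-101b probes (right) on each array, as the mean over spots with bars of 1 SD; E13 in blue, E16 in red, filled circles the longer probe and open triangles the shorter one. miR-101a ran from 7.38 to 140 on its longer probe, and the shorter miR-101b probe stayed between -1.07 and 7.92.

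The shorter miR-101a probe gave the same order of arrays. Its signal was 7.97, 13.8, 37.1 and 21.7 on E13 replicates 1 to 4 and 106, 61.4, 27.1 and 4.12 on E16 replicates 1 to 4. On the scaled log2 scale, where each array is divided by its 75th percentile, the longer probe exceeded the shorter one by 0.35 to 0.75 at E13 and by 0.41 to 0.84 at E16. The widest gap of each stage fell on E13 replicate 1 and E16 replicate 4, where no spot of the shorter probe was well above background. With the shorter probe the log2 difference between the stages was 0.53 (limma adjusted p = 0.35), beside 0.55 with the longer probe.

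miR-101b was dimmer and close to the detection limit. Its longer probe read 3.95, 4.94, 17.1 and 9.0 on E13 replicates 1 to 4 and was well above background on replicate 3 alone. At E16 it read 30.3, 20.3, 9.98 and 0.778 on replicates 1 to 4, well above background on replicates 1, 2 and 3. On E16 replicate 3 only 6 of 10 spots were. The shorter miR-101b probe was between -1.07 and 7.92 on all arrays and well above background on none. With 4 arrays above background, 3 of them E16 arrays, miR-101b met the filter for testing with no array to spare.

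The authors' total signal per miRNA, which sums over probes, was 14.2 to 59.0 for miR-101a at E13 and 4.90 to 160 at E16. For miR-101b it stood at 0.1, the value given to undetected miRNAs, on E13 replicates 1 and 2 and E16 replicate 4. On the other 5 arrays it was between 6.16 and 24.7. The other arm of the Mir101a hairpin, miR-101a*, had 4 probes with no spot well above background on any array. Its total signal was 0.1 on all 8 arrays, so only the 3p arm was detectable.

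Whether the level of either miRNA differed between the stages was asked after scaling. For miR-101a the scaled log2 values at E13 were -3.60, -4.18, -3.23 and -3.16 on replicates 1 to 4. At E16 they were -2.12, -3.17, -2.81 and -3.88. E16 replicates 1 and 3 lay above every E13 array, replicate 2 within the E13 range and replicate 4 below all but 1 E13 array, so the groups overlapped. The mean was -3.54 ± 0.46 (SD, n = 4) at E13 and -2.99 ± 0.74 (SD, n = 4) at E16. The log2 difference of 0.55 (1.47-fold, SE 0.38, 95% confidence interval -0.31 to 1.41) did not pass the test (limma adjusted p = 0.27).

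For miR-101b the scaled log2 values at E13 were -5.36, -5.96, -4.84 and -5.03 on replicates 1 to 4. At E16 they were -4.33, -5.20, -4.82 and -5.96. The value of -5.96 is the floor set for all arrays, at which values have no order, and it was reached by E13 replicate 2 and E16 replicate 4. The groups overlapped here too. The mean was -5.30 ± 0.49 (SD, n = 4) at E13 and -5.08 ± 0.69 (SD, n = 4) at E16. The log2 difference was 0.22 (SE 0.37, 95% confidence interval -0.62 to 1.06, limma adjusted p = 0.66), and because of the floor its size is not exact.

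**Figure D2:**
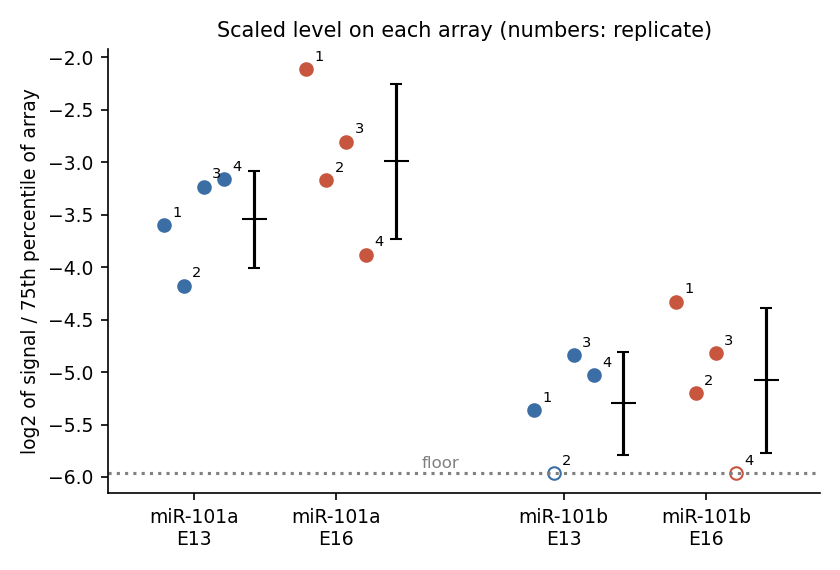
Scaled level (log2 of the processed signal over the array's 75th percentile, vertical axis) of miR-101a and miR-101b on each E13 (blue) and E16 (red) array, with replicate numbers; black marks give the mean and 1 SD (n = 4), open circles lie at the floor of -5.96 (dotted line). In both miRNAs E16 replicate 1 is highest, and the stages overlap.

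Neither of the 2 miRNAs was called with limma, and at an unadjusted p under 0.05 the count was also 0. Among the 153 miRNAs tested, 33.3% passed in either direction, 7.19% as higher and 26.1% as lower at E16. The values of the stages did not overlap in 38.6% of the tested miRNAs, and they overlapped in both members. By size of difference miR-101a ranked 13 and miR-101b 30 from the top of the 153. Only 29.4% of the tested miRNAs had a difference above 0, and the median of all was -0.40.

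**Figure D3:**
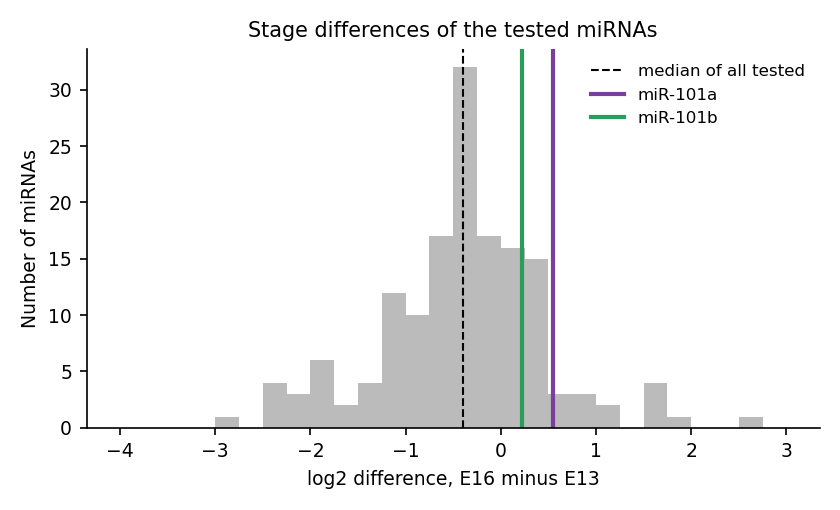
Number of miRNAs (vertical axis) by log2 difference, E16 minus E13 (horizontal axis), for the 153 tested miRNAs. The dashed line marks the median of -0.40, and miR-101a (0.55, purple) and miR-101b (0.22, green) lie to its right.

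This median moves with the scaling. It was 0.42 when every mouse probe entered the percentile and -0.09 after quantile normalization. Relative to the median, miR-101a stood at 0.95, 0.95 and 1.03 under these 3 scalings, and miR-101b at 0.62, 0.47 and 0.88. Within slide 3 they stood at 0.08 and -0.27. With normexp background correction (offset 50) before quantile normalization they stood at 0.41 and 0.14. That offset exceeds every signal of the longer miR-101b probe (at most 30.3), so these values are not directly comparable with the other scalings. Without reference to the median, miR-101a passed the test as higher at E16 when every mouse probe entered the percentile (log2 difference 1.37, SE 0.35, limma adjusted p = 0.010), a setting with 47 higher calls among 153. It passed after quantile normalization (0.94, SE 0.30, limma adjusted p = 0.044), with 20 higher calls. In the authors' deposited values, where 1 of its spots is listed, it passed too (0.97, SE 0.30, limma adjusted p = 0.045), with 13 higher calls among 86. miR-101b did not pass under either of the first 2 of these settings (0.89 and 0.79).

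The values differed by slide. Slide 1 held E16 replicate 1 alone. Slide 2 held E13 replicates 1 and 2 and E16 replicates 2 and 3, and there the log2 difference was 0.90 (SE 0.28, limma adjusted p = 0.081) for miR-101a and 0.65 (SE 0.29, limma adjusted p = 0.15) for miR-101b. Slide 3 held E13 replicates 3 and 4 and, of E16, replicate 4 alone. There the log2 difference was -0.68 for miR-101a and -1.03 for miR-101b. Both values rest on that one dim array, where miR-101a was not well above background and miR-101b was at the floor, so they set no direction. With slide as a fixed block, which takes E16 replicate 1 out of the contrast, the differences were 0.27 for miR-101a and -0.02 for miR-101b. Every E13 array lay in row 2 of its slide and every E16 array in row 1, so row and stage cannot be told apart.

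Single arrays also moved the values. Without E16 replicate 4 the log2 difference of miR-101a was 0.85 (SE 0.32, limma adjusted p = 0.058) and that of miR-101b 0.51 (SE 0.31, limma adjusted p = 0.20). Without E16 replicate 1, the highest array, they were 0.26 and -0.03. Without E13 replicate 2, the lowest E13 array, they were 0.34 and -0.00090. No array left out brought either miRNA past the threshold.

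**Figure D4:**
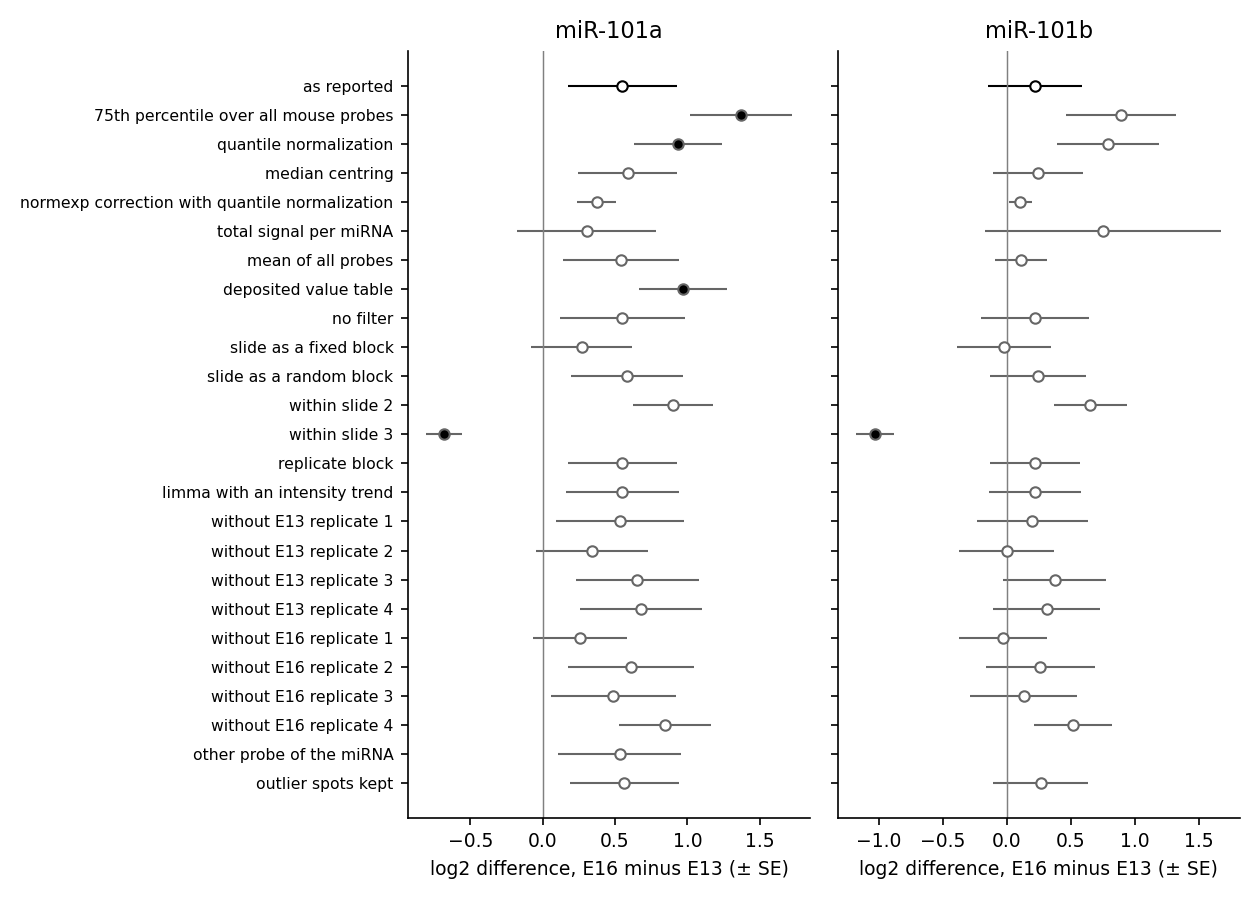
Log2 difference, E16 minus E13, with its SE (horizontal axis) of miR-101a (left) and miR-101b (right) under each processing setting (vertical axis); filled marks passed an adjusted p of 0.05, those within slide 3 with E16 replicate 4 as the only E16 array. Values of miR-101a lie between -0.68 (within slide 3) and 1.37, and those of miR-101b between -1.03 (within slide 3) and 0.89.

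Both miRNAs can also be set against each other within each array, where a scaling factor common to all probes cancels unless a value is at the floor. The log2 value of the miR-101a probe minus that of the miR-101b probe was 1.76, 1.78, 1.61 and 1.86 on E13 replicates 1 to 4. On E16 replicates 1 to 4 it was 2.21, 2.03, 2.01 and 2.08. On E13 replicate 2 and E16 replicate 4 miR-101b was at the floor, so there the value depends on the scaling. Unfloored, it was 1.82 on E13 replicate 2 and 3.25 on E16 replicate 4. With the floored values, the mean was 1.75 ± 0.11 (SD, n = 4) at E13 and 2.09 ± 0.09 (SD, n = 4) at E16. The values of the stages did not overlap, and the small SD at E16 depends on the floor. The miR-101b probe was not well above background on E13 replicates 1, 2 and 4 and on E16 replicate 4, where miR-101a was not either. Only E13 replicate 3 (1.61) and E16 replicates 1 to 3 (2.01 to 2.21) therefore compare signals above background, and 1 array against 3 allows no test. An exact permutation test over all arrays gave p = 0.029, the smallest value that its 70 assignments allow. With the mean of all probes the same permutation test gave p = 0.14. Because the test includes arrays not above background and floored values, it cannot decide whether the miRNAs changed unequally. The difference of 0.33 between the means is a description of the probes, and no unequal change of the miRNAs was shown by it.

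Signals at or near background also set its size. With unfloored signals it was 0.61, and without the arrays at the floor 0.34, which still includes E13 replicates 1 and 4. With the total signal per miRNA, where miR-101b is at 0.1 on 3 arrays, it turned to -0.45.

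**Figure D5:**
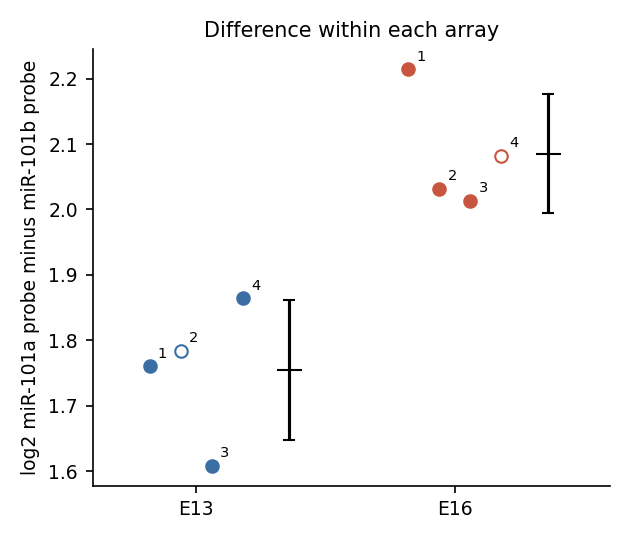
Log2 value of the miR-101a probe minus that of the miR-101b probe (vertical axis) on each E13 (blue) and E16 (red) array, with replicate numbers; black marks give the mean and 1 SD (n = 4), open circles the arrays with miR-101b at the floor. The miR-101b probe was not well above background on E13 replicates 1, 2 and 4 and E16 replicate 4; the E13 arrays lie between 1.61 and 1.86 and the E16 arrays between 2.01 and 2.21.

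The miRNAs whose pattern was most like that of miR-101a were sought among the 75 detected above background by all 8 arrays. Over the 8 arrays the Pearson correlation of scaled log2 values was 0.99 for miR-15a, 0.97 for miR-30e, 0.94 for miR-181a-1*, 0.92 for miR-30a and 0.91 for miR-181c. For miR-101b the closest were miR-106b (0.98), miR-15a (0.97), miR-30a (0.94), miR-30e (0.94) and miR-21 (0.93). miR-101a and miR-101b themselves correlated at 0.95 (Spearman 0.92), but how far the signal of one reaches the other's probe was not tested. The median correlation of these 75 miRNAs with miR-101a was 0.22. None of the 7 miRNAs named as most like them passed the stage test with limma. These correlations are descriptions over the same 8 arrays, whose scaling all miRNAs share, and those with miR-101b include its values at the floor. Over the settings tried they fell as low as 0.65 for miR-106b with miR-101b and 0.70 for miR-15a with miR-101a.

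Both members spanned a wide range among the E16 arrays. From E16 replicate 4, where miR-101a was not well above background and miR-101b was at the floor, to E16 replicate 1, the scaled log2 value of miR-101a differed by 1.76. That of miR-101b differed by at least 1.63. Of the miRNAs most like them, miR-21 differed by 1.31, miR-15a by 1.26, miR-106b by 1.05 and miR-30e by 0.95. miR-181c differed by 0.75 and miR-181a-1* and miR-30a by 0.58 each, against a median of 0.54 over all tested miRNAs. Replicate 1 was the higher of the pair in 111 of 153 miRNAs.

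Other miRNAs reported to target Ezh2 form a list of 17, of which 13 were tested. With limma 4 of these rose at E16 and 1 fell, while 8 missed the threshold, beside 7.19% higher and 26.1% lower among all tested miRNAs. The list median was 0.46, against -0.40 for all tested miRNAs. All 4 that rose are let-7 miRNAs, which promote the exit from early developmental programmes, and 9 of the 17 belong to the let-7 family with alike probes. let-7b rose by a log2 difference of 2.66 (SE 0.28), let-7c by 1.57 (SE 0.25), let-7a by 0.85 (SE 0.22) and let-7f by 0.72 (SE 0.23), with limma adjusted p from 7.9e-05 for let-7b to 0.033 for let-7f. Of 23 alternatives, let-7f lost its call in 13, let-7a in 5 and let-7c in 1. miR-137, a brain-enriched regulator of neural stem cells, was the member that fell (-1.02, SE 0.30, limma adjusted p = 0.026), with 1 E16 array at the floor. It lost its call in 10 alternatives and kept it in 11, and the others did not test it. When every mouse probe entered the percentile, 10 members were called higher and 0 lower, beside 47 and 16 of all 153 miRNAs. After quantile normalization the list had 7 and 0, beside 20 and 27 of all.

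miR-26a and miR-26b, which like miR-101 are known repressors of Ezh2, did not pass the test. miR-26a had a log2 difference of 0.48 (SE 0.18, limma adjusted p = 0.069). miR-26b had one of 0.37 (SE 0.23, limma adjusted p = 0.23). Like miR-101a, miR-26b was not above background on E16 replicate 4. miR-124, also listed and tested, had a log2 difference of -0.07 (SE 0.41, limma adjusted p = 0.91). miR-138, miR-144, miR-214 and miR-217, the listed miRNAs that were not tested, were well above background on no array.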

How the data were processed

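Per the labels' protocols, total RNA of FACS-isolated cells carried the dye Cy3 on Agilent miRNA arrays of 1 colour. The authors deposited 1 scanner file per array with spot intensity values and flags of 0 or 1 as other columns, made with Agilent Feature Extraction 10.7.3.1 per the submitters' processing notes and mm9 per the file headers. They also deposited a table of log2 values for 1187 spots, which ranked spots as the processed signal did and whose column medians are all 6.90; its normalization is not stated.

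Control and outlier spots were left out, no mouse spot was saturated, and spots of a probe were averaged. A probe counted as well above background if at least a 0.5 share of its spots did. Arrays were divided by their 75th percentile over 126 probes well above background on all 8, floored at log2 -5.96 (percentile 1 of signals above background), and the probe with the highest mean stood for its miRNA. miRNAs that met this limit on 4 or more arrays were tested with limma 3.58.1 in R 4.3.3, two-sided, with Benjamini-Hochberg adjustment over all 153 and a threshold of 0.05. The fit was tested on simulated data. Leaving out an array kept the scaling and the 153 miRNAs.

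Members and lists were chosen with earlier results of these data known. Named were the members, their other arms, miRNAs of shared seed, the Ezh2 list and the 5 most correlated miRNAs per member. Intensities carry no counts, so the number of arrays limits the precision. Same-numbered replicates are not paired by the labels.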

Additional observations from a re-analysis of the deposited data

How the results depend on the processing

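miR-101a passed when every mouse probe entered the percentile (1.37), after quantile normalization (0.94) and in the authors' deposited values (0.97), and turned to -0.68 within slide 3. miR-101b turned to -0.020 with slide as a fixed block and to -1.03 within slide 3, and miR-26b to -0.26 within slide 3. The difference of 0.33 in miR-101a minus miR-101b between the stages, which rests on miR-101b signals at or near background, was 0.43 with the mean of all probes and turned to -0.45 with the total signal per miRNA. The cause of these changes was not tested. The 51 calls over all miRNAs became 24 of 86 in the deposited values, 19 of 75 with detection on all 8 arrays and 102 within slide 3, the first 2 with fewer miRNAs tested. Higher and lower calls were 11 and 40, but 47 and 16 when every mouse probe entered the percentile and 20 and 27 after quantile normalization. Leaving out 1 array gave 0.26 to 0.85 for miR-101a, -0.029 (without E16 replicate 1; -0.00090 without E13 replicate 2) to 0.51 for miR-101b, 0.28 to 0.37 for miR-101a minus miR-101b and 38 to 71 calls. The call of let-7f was lost in 13 settings, that of miR-137 in 10 (kept in 11, not tested in the others), that of let-7a in 5 and that of let-7c in 1. let-7b kept its call in all 23. miR-26a passed in 5 settings and miR-26b in 4. With the replicate number as a block (replicate block) miR-101a stayed at 0.55 (limma adjusted p = 0.29), miR-101b at 0.22 (limma adjusted p = 0.66), with 45 calls. Deviations of same-numbered arrays correlated at -0.15 to 0.27, and 1 of the 8 arrays correlated best with its own number. The shorter miR-101b probe was at the floor on all arrays and gave no value, and miR-101b has none in the deposited table. Neither member is above background on all 8 arrays. The 2 alternatives on the floor were chosen after seeing the data. Signal over background limits miR-101b throughout and both members on E16 replicate 4.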

Other observations

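The longer miR-101a probe has a G+C share of 33.3% and the longer miR-101b probe one of 38.9%, in the lower part of the range of 30.4% to 84.6% over the 153 tested miRNAs (median 47.4%). Across these miRNAs the probes' G+C share correlated at -0.24 (Spearman -0.32) with the log2 difference from E16 replicate 4 to E16 replicate 1, and probe length at 0.37, values at the floor included. These are descriptions across miRNAs, which are not independent replicates, and the part of probe composition in the values of miR-101a and miR-101b was not tested. Of the miRNAs most like them, miR-15a has a probe G+C share of 40.9% and miR-106b one of 52.9%.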
